A study of Mus musculus with 8 samples.

Results

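Small leucine-rich proteoglycans are secreted matrix proteins that share a core of leucine-rich repeats, and 10 of their genes (Dcn, Lum, Bgn, Fmod, Ogn, Kera, Aspn, Prelp, Omd and Podn) were examined in cultures of activated mouse microglia. The members were chosen by gene symbol and were found under the same identifier in both deposited tables, 10 of the 31406 genes of the table of the dual treatment. RNA sequencing had given 8 libraries from primary cultures of the striatum of wild-type C57/BL6 pups in the first days after birth. The labels give day 3, and the methods give a range of days that includes it. The meninges had been taken off, as stated in the methods. The cultures drew on the litters of a few pregnant animals, and no source ties a library to a litter. Cells were cultured for 15 days and then activated for 48 h with LPS at 0.01% (v/v) and interferon-γ at 0.002% (v/v), with ligand given at 24, 32 and 40 h. In 4 libraries the ligand was 200 nM SCH 58261, an antagonist of the adenosine A2A receptor (A2A antagonist group), and in the other 4 it was given with 200 nM 2-Cl-IB-MECA, an agonist of the adenosine A3 receptor (dual group). All 8 libraries therefore shared the activation and the antagonist. The titles of the samples give this grouping, and the column names of the deposited counts match the titles. The treatment field of the labels contradicts it and assigns the agonist to the libraries whose titles give the antagonist alone. The direction of every difference therefore rests on the titles and column names. The study also compared treated cells with activated cells that received vehicle, and those control libraries were not analysed here. The methods and a figure legend of the paper give the replicate numbers of vehicle-treated and ligand-treated cells in opposite order. The 4 libraries per group used here follow the labels. Nothing in the labels says that the libraries of a group came from separate animals or separate cultures, so p-values measure the spread between these libraries, which may be technical.

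In connective tissue these proteins bind collagen fibrils and set their diameter and spacing, and several of them hold growth factors such as TGF-β in the matrix. Some carry chains of chondroitin, dermatan or keratan sulfate, and biglycan released from the matrix can engage Toll-like receptors of macrophages. In the brain the family is known mainly from fibroblasts of the meninges and of the vessel walls rather than from microglia.

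Libraries held between 32630602 and 45878639 counts, and 26155 to 26809 genes were detected. All 11 microglia markers were detected in every library, with a summed level of 1164 to 1232 CPM (counts per 1000000 counts of a library, scaled with TMM factors) in the A2A antagonist group and 1108 to 1188 CPM in the dual group. Markers of other cell types were also present. The 7 astrocyte markers summed to between 5777 and 6282 CPM over the 8 libraries, and the 12 fibroblast markers, all detected in every library and none of them a proteoglycan or collagen gene, summed to between 1343 and 1488 CPM. The 8 mural, 4 endothelial and 6 oligodendrocyte markers summed to at most 314.9, 46.15 and 255.4 CPM. In such bulk libraries fewer cells of a type and less RNA per cell cannot be told apart, and which cells carried the transcripts described here was not measured.

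The family divided into abundant and scarce members. To compare genes of different size, levels were expressed as CPM per kilobase of exonic gene length. This length counts every annotated exon of a gene (5838 bases for Dcn and 6099 for Bgn). A gene whose main transcript is shorter is thereby shown lower, which the order below does not correct. Dcn, which encodes decorin, a collagen-binding and TGF-β-binding proteoglycan, had the highest level, 96.0 CPM per kilobase on average over the 8 libraries, and only 428 of the 18756 genes tested lay above it. Bgn (biglycan, its closest relative) followed with 51.8 CPM per kilobase and Prelp, a protein of basement membranes and connective tissue, with 47.4. Ogn (osteoglycin) and Fmod (fibromodulin, a keratan sulfate proteoglycan of collagen fibrils) had 31.5 and 31.0 CPM per kilobase. A gap separated these from Podn (podocan) with 5.45, Lum (lumican, a keratan sulfate proteoglycan prominent in the cornea) with 2.65, Omd (osteomodulin) with 1.42 and Aspn (asporin) with 0.781 CPM per kilobase. Kera, which encodes the corneal proteoglycan keratocan, had 0.0470 CPM per kilobase and 1 to 8 counts per library, and it alone failed the low-count filter.

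Most steps in this order were larger than the spread between libraries. The ranges of neighbours over the 8 libraries did not overlap for 7 of the 9 steps. Dcn exceeded Bgn in all 8 libraries, by 1.62-fold to 2.17-fold per length, and Fmod exceeded Podn in all 8, by 5.13-fold to 6.52-fold. Bgn exceeded Prelp in 7 of 8 libraries, with overlapping ranges (47.4 to 61.3 against 43.4 to 50.7 CPM per kilobase). Ogn exceeded Fmod in 3 of 8 libraries, and these levels did not differ beyond their spread. Dcn made up 35.8% of the summed level per length of the 10 genes, and Dcn, Bgn, Prelp, Ogn and Fmod were the 5 members above the 90th percentile of the genes tested (percentiles 97.7, 95.1, 94.5, 91.1 and 90.9). Among the microglia markers, for comparison, C1qa had 422.7 CPM per kilobase, Csf1r 46.3, Aif1 35.8 and Tmem119 3.20, values chosen after they were seen. The per-length level of Dcn thus lay between those of C1qa and Csf1r. In CPM, without length, Dcn (538 and 582 in the A2A antagonist and dual groups) lay above C1qa (476 and 403).

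**Figure D1:**
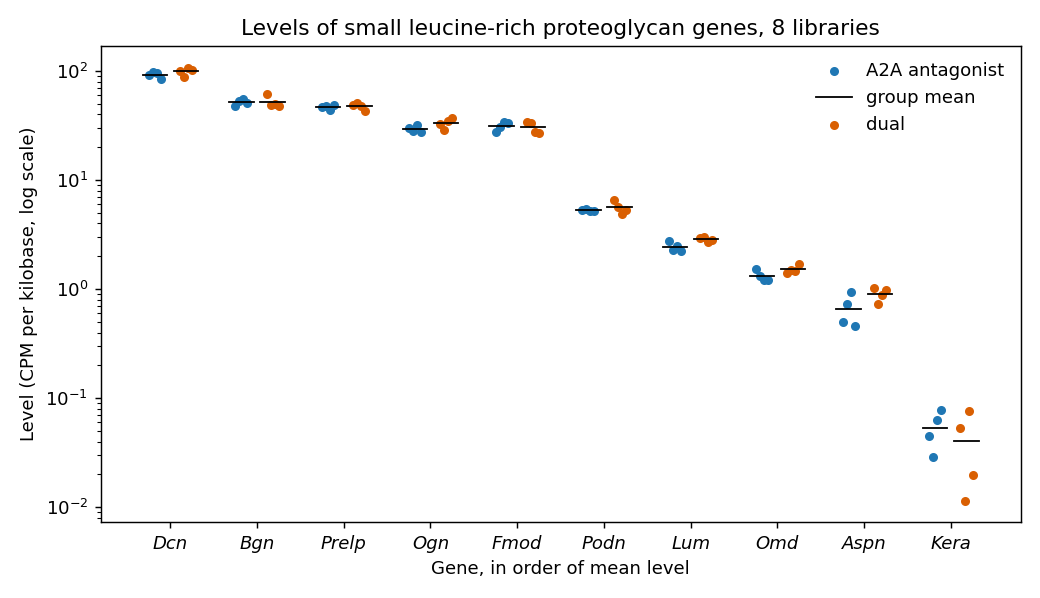
Level of each of the 10 genes in CPM per kilobase of exonic length (log axis), with 1 point for each library, the A2A antagonist group in blue, the dual group in orange and a black line for the mean of each group (n = 4). Dcn lies highest at 85.1 to 107.5 CPM per kilobase, 5 genes lie above 27, and Kera lies below 0.1 in every library.

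Neighbouring genes of the family had very different levels. In GRCm38, 8 of the 10 members lie in 3 groups of neighbouring genes. On chromosome 10, Dcn (97479609 to 97518143), Lum (97565128 to 97572703) and Kera (97606879 to 97613692) follow each other on the plus strand within 203 kb, together with Epyc, and they held ranks 1, 7 and 10 of the family by level per length. On chromosome 13, Aspn (49544443 to 49567565), Omd (49582462 to 49592822) and Ogn (49608046 to 49624501), together with Ecm2, lie on the plus strand within 119.7 kb and held ranks 9, 8 and 4. On chromosome 1, Prelp (133910304 to 133921414, minus strand) and Fmod (134037254 to 134048277, plus strand) lie within 151 kb with Optc and held ranks 3 and 5. Bgn (73483602 to 73495933 on chromosome X, plus strand) and Podn (108014791 to 108096445 on chromosome 4, minus strand) stand alone. Exonic overlaps were small: Prelp shares 350 of 3615 exonic bases with an antisense gene, Gm15851, that had at most 4 counts per library, and Aspn shares 7 of 2354 bases with Cenpp on the opposite strand.

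The promoters of the 3 neighbours on chromosome 13 are shown because these genes share a position and a strand but differed in level, and that of Bgn because it is the abundant member outside any such group. RefSeq promoter entries on GRCm38.p6 were at hand for 8 of the 10 members (9 entries, since Podn has 2), not for Dcn or Lum. The 250 bases before the start are given for Aspn (chr13:49544193-49544442, plus strand), Omd (chr13:49582212-49582461, plus strand), Ogn (chr13:49607765-49608014, plus strand) and Bgn (chrX:73483351-73483600, plus strand), from 5′ to 3′. Capitals mark matches on either strand to the TATA box (TATAAA), the GC box bound by Sp1 (GGGCGG) and the SMAD element (CAGAC).
Aspn: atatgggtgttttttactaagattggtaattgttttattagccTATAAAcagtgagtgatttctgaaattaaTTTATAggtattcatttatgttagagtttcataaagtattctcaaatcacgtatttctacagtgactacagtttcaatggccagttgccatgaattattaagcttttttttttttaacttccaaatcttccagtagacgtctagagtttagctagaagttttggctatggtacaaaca
Omd: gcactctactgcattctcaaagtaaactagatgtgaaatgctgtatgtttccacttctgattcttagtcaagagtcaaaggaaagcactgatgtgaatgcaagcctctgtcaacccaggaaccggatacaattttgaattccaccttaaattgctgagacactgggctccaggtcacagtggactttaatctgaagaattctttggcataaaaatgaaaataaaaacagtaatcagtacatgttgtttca
Ogn: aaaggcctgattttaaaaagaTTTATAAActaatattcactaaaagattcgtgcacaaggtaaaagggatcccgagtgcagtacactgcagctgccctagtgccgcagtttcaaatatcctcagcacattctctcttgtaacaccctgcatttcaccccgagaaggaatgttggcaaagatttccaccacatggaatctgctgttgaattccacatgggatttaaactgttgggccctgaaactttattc
Bgn: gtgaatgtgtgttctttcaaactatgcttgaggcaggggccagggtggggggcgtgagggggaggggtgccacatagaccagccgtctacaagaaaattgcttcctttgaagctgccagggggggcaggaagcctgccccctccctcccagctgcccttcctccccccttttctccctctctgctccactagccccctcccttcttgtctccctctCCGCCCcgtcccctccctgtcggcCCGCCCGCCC
The TATA box letters occurred in the Aspn and Ogn windows, 178 to 229 bases before the start. The pair of matches in Ogn overlap as 1 run that reads as the motif on both strands. The window of Bgn, with 64.4% G and C against 30%, 38.4% and 42% in Aspn, Omd and Ogn, held 3 matches to the GC box. Over all 9 entries, 2 held the TATA box, 2 the GC box (Bgn and 1 of Podn) and 2 the SMAD element (Prelp and Fmod). Among all 32851 promoter entries of the same length, the shares holding these letters were 12.4%, 32.7% and 42.2%. A match describes the letters only, and factor binding was not measured.

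The comparison of the groups asked whether adding the A3 receptor agonist to the A2A receptor antagonist altered the expression of these genes. No member passed the test. Of the 18756 genes tested with edgeR, 39 had an adjusted p-value under 0.05 (0.208% of those tested), 0.048% with a higher and 0.16% with a lower mean with both ligands. None of the 9 members tested was among them (0 of 9). An unadjusted p-value under 0.05 was reached by 4 members (Ogn, Lum, Dcn and Aspn), each with a higher mean in the dual group. Of all tested genes 12.8% reached it, 5.98% with a higher and 6.81% with a lower mean in the dual group. DESeq2 gave an adjusted p-value to 6 members and called 0 of them, where it called 3.37% of the 11313 genes with such a value. Of these 6 members, Dcn and Ogn reached an unadjusted p-value under 0.05 in DESeq2, as did 15.7% of the 11313 genes. Lum and Aspn also reached it but were given no adjusted p-value, and 7.36% of all 31401 genes with a DESeq2 p-value did so. In 0 of the 9 did the CPM of the groups fail to overlap, against 7.42% of all tested genes (3.36% higher and 4.06% lower in the dual group). The median log2 fold change (dual minus A2A antagonist) of the 9 was 0.11, and that of all tested genes was 0.0038.

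Among the members with the closest kinship to decorin, Dcn itself had 531, 566, 558 and 497 CPM in the A2A antagonist libraries and 579.5, 519, 628 and 603 CPM in the dual libraries. The dual libraries lay higher on average, but replicate 2 of that group lay below 3 libraries of the other. The means were 538 ± 31.3 against 582 ± 46.3 CPM (SD, n = 4 each), which gave a log2 fold change of 0.11 (SE 0.05, 95% interval 0.0092 to 0.22, adjusted p-value 0.342). Bgn showed a single high library. It had 289, 323, 336 and 313 CPM with the antagonist, and 373.8, 299, 302 and 289.5 CPM with both ligands, so that replicate 1 of the dual group stood above the other 7 libraries and the other 3 fell within the range of the antagonist group. The log2 fold change of Bgn was 0.0033 (SE 0.06, 95% interval -0.13 to 0.14, adjusted p-value 0.989), and without that library it was -0.09 with an adjusted p-value of 0.398. Aspn encodes a relative of decorin that binds collagen and TGF-β. It had 1.17, 1.715, 2.20 and 1.08 CPM against 2.42, 1.735, 2.09 and 2.30 CPM, from 45 to 102 counts per library. Replicates 1 and 4 of the A2A antagonist group were lowest, and replicates 2 and 3 of that group were near or within the range of the dual group. Aspn thereby had the largest log2 fold change of the 9 members, 0.47, with the widest interval (SE 0.21, 95% interval 0.04 to 0.90, adjusted p-value 0.343).

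Among the relatives of the keratan sulfate proteoglycans fibromodulin and lumican, no member passed the test either. Lum had 6.71, 5.63, 6.15 and 5.44 CPM with the antagonist and 7.17, 7.44, 6.56 and 6.88 CPM with both ligands, and the groups overlapped through 1 library on each side. The log2 fold change of Lum was 0.23 (SE 0.09, 95% interval 0.04 to 0.42, adjusted p-value 0.288), from 234 to 305 counts per library. Omd, whose product is known from bone, had 2.97 ± 0.334 against 3.41 ± 0.294 CPM (SD, n = 4 each), which gave a log2 fold change of 0.21 (SE 0.12, adjusted p-value 0.518). Replicate 1 of the A2A antagonist group, at 3.45 CPM, lay above all dual libraries but replicate 4. Fmod had 92.0, 101, 112 and 110.3 CPM with the antagonist and 113, 111, 91.9 and 90.1 CPM with both ligands. The dual libraries of Fmod thus split into a higher pair (replicates 1 and 2), near the top of the antagonist group, and a lower pair (replicates 3 and 4), below all 4 of its libraries. Its log2 fold change was -0.04 (SE 0.07, 95% interval -0.18 to 0.11, adjusted p-value 0.880). Prelp had the smallest standard error of the 9, with 169.8 ± 7.03 against 173 ± 11.3 CPM (SD, n = 4 each), a log2 fold change of 0.02 (SE 0.04, 95% interval -0.07 to 0.12, adjusted p-value 0.883). The counts of Kera were 4, 3, 6 and 8 with the antagonist and 4, 1, 8 and 2 with both ligands. These are 0.122 ± 0.0478 against 0.0921 ± 0.0689 CPM (SD, n = 4 each), and no difference was detectable at this depth (adjusted p-value 0.909 in edgeR without the low-count filter).

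Ogn had the smallest p-value of the family, rank 865 of the 18756 genes tested. Its levels were 77.85, 71.7, 82.8 and 71.4 CPM with the antagonist and 84.2, 74.6, 89.6 and 94.3 CPM with both ligands. Of the dual libraries, 3 lay above every A2A antagonist library and replicate 2 lay among them. The log2 fold change of Ogn was 0.18 (SE 0.06, 95% interval 0.05 to 0.30) with an adjusted p-value of 0.214, and over all alternatives this adjusted p-value ranged from 0.0539 without the low-count filter to 0.484 without replicate 4 of the A2A antagonist group. Podn, whose product is known from smooth muscle and vessel walls, had 22.6 ± 0.597 against 24.0 ± 2.98 CPM (SD, n = 4 each), which gave a log2 fold change of 0.08 (SE 0.07, adjusted p-value 0.671). Replicate 1 of the dual group, at 27.9 CPM, was again the highest library. In two-sided exact permutation tests of the CPM of each of the 10 members over the 70 arrangements of 4 against 4, the p-values ran from 0.0571 (Lum) to 0.971 (Bgn), where the smallest that the design can give is 0.0286.

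**Figure D2:**
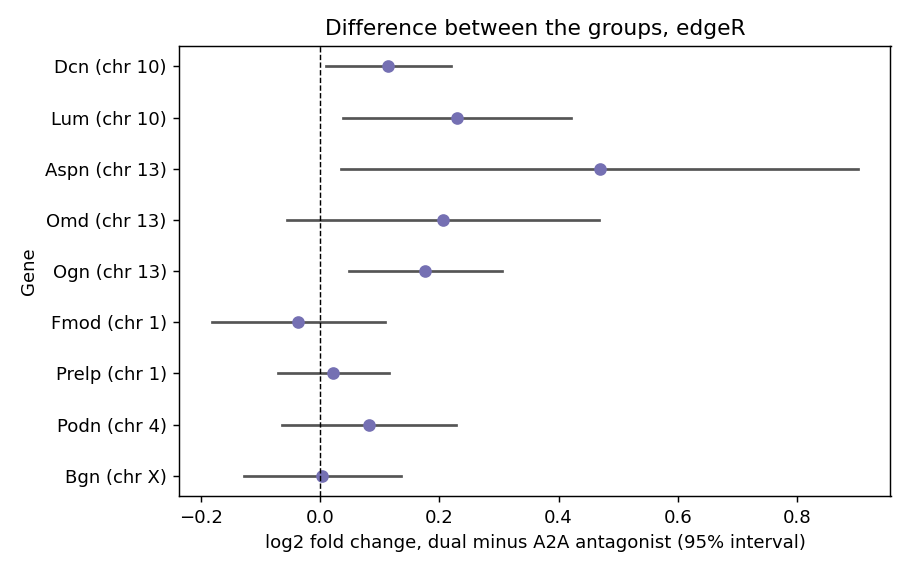
Log2 fold change of the 9 members that passed the low-count filter (dual minus A2A antagonist, edgeR), with the 95% interval as a line, grouped by chromosome. The intervals of Dcn, Lum, Aspn and Ogn lie above 0 before adjustment for the 18756 genes tested, those of Omd, Fmod, Prelp, Podn and Bgn include 0, and no adjusted p-value is under 0.05.

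The fold changes are also given by chromosome, an arrangement made after the values were seen and not tested. The 5 tested members on chromosomes 10 and 13 had log2 fold changes from 0.11 to 0.47, and the 4 on chromosomes 1, 4 and X from -0.04 to 0.08. Epyc, the neighbour of Dcn, Lum and Kera and a proteoglycan of growth plate cartilage, had 4.67 ± 0.529 with the antagonist against 6.03 ± 0.933 CPM with both ligands (SD, n = 4 each) (log2 fold change 0.37, SE 0.12, adjusted p-value 0.179). Ecm2, the neighbour of Aspn, had a log2 fold change of 0.11 (SE 0.07, adjusted p-value 0.528), and Optc, the neighbour of Prelp, had -0.21 (SE 0.23, adjusted p-value 0.768). The remaining relatives with leucine-rich repeats were Tsku at 44.1 ± 1.22 CPM and 42.8 ± 1.91 CPM (SD, n = 4 each), Chadl with a log2 fold change of -0.10, and the scarce Podnl1, Chad and Nyx with 0.69, 0.38 and -0.08. None of these 8 relatives was called by edgeR, only Epyc reached an unadjusted p-value under 0.05, and the median log2 fold change of the 8 was 0.04.

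Library by library, the abundant members did not vary as 1 block. Dcn and Ogn were highest in replicates 3 and 4 of the dual group, where Dcn lay 0.22 and 0.16 and Ogn 0.24 and 0.31 above the mean of the antagonist group on the log2 CPM scale. In the same libraries Bgn lay at -0.06 and -0.12 and Fmod at -0.18 and -0.20. In replicate 1 of the dual group Podn (0.31) and Bgn (0.25) were the highest of the 6. The ratio of Dcn to Bgn per length was therefore between 1.62 and 2.17 in the dual group and between 1.66 and 1.92 in the A2A antagonist group, and the ratio of Dcn to Ogn between 2.81 and 3.08 and between 2.96 and 3.47. The spread between libraries was well above counting error for the abundant genes. The coefficient of variation of Dcn was 5.81% and 7.96% in the groups, with 0.655% from counting, and that of Bgn 6.32% and 12.3%, with 0.875%. For Lum and Omd counting error (6.11% and 8.70%) was close to the whole spread (5.41% to 9.58% and 8.62% to 11.3%), and for Kera it was 47.1%. For Aspn it was 11.5%, with a spread of 34.0% and 14.1% in the groups. Depth thus limits the comparison for Kera, Lum and Omd, and in part for Aspn, more than for Dcn, Bgn, Prelp, Fmod or Ogn, where counting error was at most 1.73%.

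**Figure D3:**
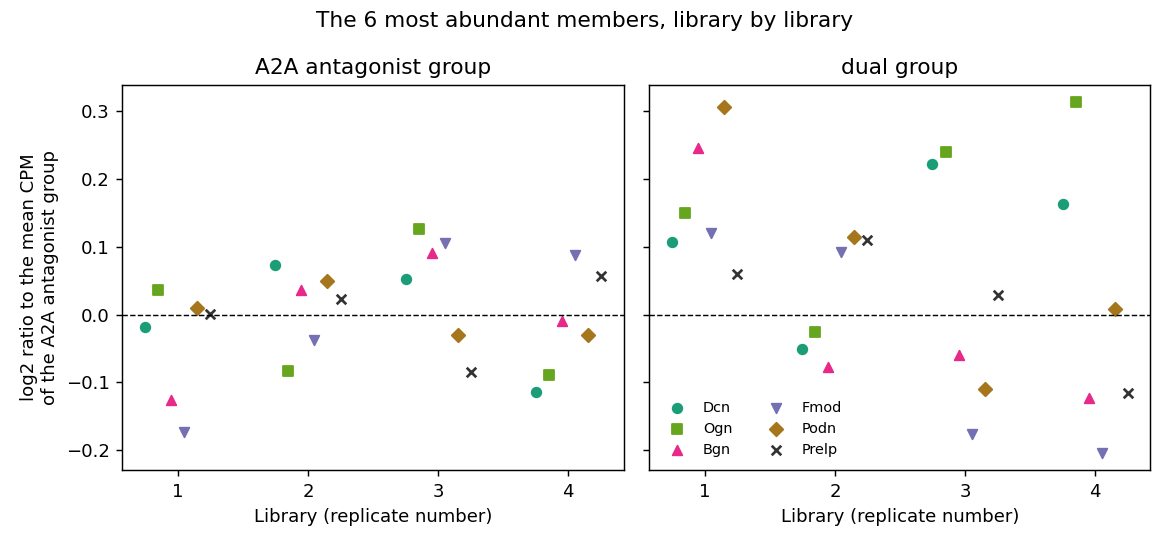
CPM of the 6 most abundant members in each library, as the log2 ratio to the mean CPM of the A2A antagonist group (dashed line at 0), with the A2A antagonist libraries on the left and the dual libraries on the right. Dcn and Ogn lie between 0.16 and 0.31 in dual replicates 3 and 4 where Fmod lies at -0.18 and -0.20, and Podn and Bgn are highest in dual replicate 1.

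Likeness between genes was measured as the root mean square difference, over the 8 libraries, between log2 CPM profiles centred on their means. Of the members, Ogn was nearest to Dcn, with a difference of 0.08 (rank 429 of 18755 genes compared), and Fmod and Podn were nearest to Bgn, with 0.10 each (ranks 1185 and 1213). The genes outside the family nearest to Dcn were Zic1 (a transcription factor gene also known from meningeal cells), Lemd3, Ormdl1, Zfp52 and Lama4 (a laminin chain), with differences of 0.03 to 0.04 where the profile of Dcn itself had a root mean square of 0.11. Those nearest to Bgn were Pde4a, Htra1, Pola2, Loxl1 and Serpinf1 (0.04 to 0.05), of which Loxl1 crosslinks elastin and Htra1 is a secreted protease. Those nearest to Prelp were Exoc7, Nid2 (a basement membrane protein), Fasn, Rftn2 and Erbb2 (0.02 each). These values describe 8 libraries that share their culture protocol, and among 18755 genes close matches can arise without any link.

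**Figure D4:**
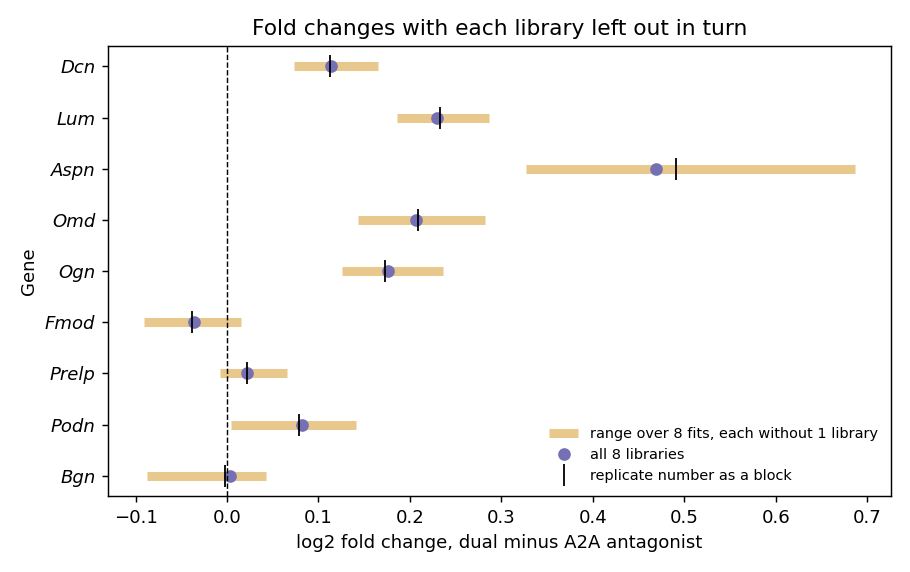
Log2 fold change of the 9 members (dual minus A2A antagonist, edgeR) with all 8 libraries (point), the range over the 8 fits that each leave out 1 library (bar), and the fit with the replicate number as a block (tick). The bars of Dcn, Lum, Aspn, Omd, Ogn and Podn stay above 0, and those of Fmod, Prelp and Bgn span it.

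The genes that build, bind and cleave these proteoglycans were read in the same fit, and edgeR called none of them between the groups. Of the 7 enzymes that start the glycosaminoglycan chain on the core protein, none reached an unadjusted p-value under 0.05, with a median log2 fold change of -0.03 (smallest p-values for B3gat3 with -0.10 and B4galt7 with -0.10). Of 15 tested enzymes that extend, epimerize and sulfate chondroitin and dermatan sulfate, 3 had an unadjusted p-value under 0.05, all with a higher mean in the dual group. Over all tested genes 5.98% did so. The smallest p-values in this list belonged to the sulfotransferase gene Chst11, with 175.9 ± 2.77 against 189 ± 8.27 CPM (SD, n = 4 each), a log2 fold change of 0.10 (SE 0.04, adjusted p-value 0.220), and to Csgalnact2 with 0.18 (adjusted p-value 0.265). Chst11 was also the only gene of this list whose groups did not overlap in CPM (1 of 15). This is near the share of all tested genes without overlap, 7.42%. Among the 7 tested enzymes of keratan sulfate none had an unadjusted p-value under 0.05, and Chst1 and B4galt4 had log2 fold changes of -0.14 and 0.06. The groups of B4galt4 did not overlap (36.2 ± 0.565 against 37.6 ± 0.594 CPM, SD, n = 4 each), the only such gene of the 7 (7.42% of all tested genes did not overlap).

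The collagens to which these proteins bind were abundant, with a summed level of 2613 to 2877 CPM in the A2A antagonist group and 2621 to 3329 CPM in the dual group, highest in dual replicate 1. Of the 11 collagen genes 10 had a positive log2 fold change, with a median of 0.10, and 4 had an unadjusted p-value under 0.05, but 0 were called by edgeR. Over all tested genes 51.5% had a positive log2 fold change, and 5.98% had an unadjusted p-value under 0.05 with a higher mean in the dual group. Col14a1 had a log2 fold change of 0.19 (SE 0.08, adjusted p-value 0.278) and Col12a1, another collagen on the surface of fibrils, 0.15 (SE 0.06, adjusted p-value 0.328). Among 20 growth factors and receptors that these proteins hold or engage, 4 had an unadjusted p-value under 0.05 with a higher mean and 5 with a lower mean in the dual group. Over all tested genes these shares were 5.98% and 6.81%. The median log2 fold change of the 20 genes was 0.0025. The smallest p-values were those of Lrp1, an endocytic receptor of decorin, with 0.16 (SE 0.05, adjusted p-value 0.172), and Ctgf with 0.20 (SE 0.07, adjusted p-value 0.217). The groups did not overlap for 2 of the 20 genes of this list, both lower in the dual group and named after their values were seen. They were Cd44 (log2 fold change -0.10, adjusted p-value 0.223) and Tlr2 (-0.09, adjusted p-value 0.268), which encodes a Toll-like receptor that biglycan can engage. Tlr4, the other Toll-like receptor gene of this list, went the other way with 0.14 (adjusted p-value 0.268) and overlapping groups. It too was named after its value was seen. Over all tested genes the groups did not overlap for 7.42%, with 4.06% lower in the dual group. Among 11 tested proteases and their enhancer, Mmp9 had 188 ± 16.3 against 237 ± 35.3 CPM (SD, n = 4 each), a log2 fold change of 0.34 (SE 0.08), groups that did not overlap and an adjusted p-value of 0.0652. Adamts4, an aggrecanase gene, had -0.17 (SE 0.05, adjusted p-value 0.157). Adamts1 and Adamts5, of the same family and named after their values were seen, had 0.14 and 0.09 (adjusted p-values 0.295 and 0.302). Of the 11 genes, 3 had an unadjusted p-value under 0.05 with a higher and 1 with a lower mean in the dual group. Over all tested genes these shares were 5.98% and 6.81%. Mmp9 was the only gene of the 11 whose groups did not overlap, against 7.42% of all tested genes.

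The cell type markers stood as follows in the same comparison. Of the 12 fibroblast markers 0 were called, 10 had a positive log2 fold change (51.5% of all tested genes did), and the median was 0.07, with summed levels of 1343 to 1488 CPM against 1394 to 1482 CPM. Tbx18 (0.16, adjusted p-value 0.270) and Mgp (0.33, adjusted p-value 0.400) had the smallest p-values of the list, and Pdgfra had -0.01. Of the 11 microglia markers, 1 was called by edgeR, C1qa, with 476 ± 29.6 against 403 ± 11.6 CPM (SD, n = 4 each) and a log2 fold change of -0.24 (SE 0.04, adjusted p-value 0.0240), a call lost without A2A antagonist replicate 4 or dual replicate 3, where 0 genes were called. Fcrls had -0.33 (adjusted p-value 0.0952) and Aif1 -0.21 (adjusted p-value 0.110). Csf1r, named after its value was seen, went the other way with 0.11 (adjusted p-value 0.171). Of the 11 microglia markers 5 had a positive and 6 a negative log2 fold change, with a median of -0.0012. The groups did not overlap in CPM for C1qa and Fcrls, lower in the dual group, and for Csf1r, higher in it. Of all tested genes 7.42% did not overlap. The medians were 0.03 for 7 astrocyte markers (Slc1a2 0.12 and Aldh1l1 -0.12), 0.09 for 6 mural markers (Cspg4 0.13 and Notch3 0.13), 0.02 for 4 endothelial markers (Tek -0.33 and Cdh5 0.10) and -0.05 for 6 oligodendrocyte markers (Mog -0.43 and Sox10 -0.08), with no call in these lists. The part of cell composition in the values of the proteoglycan genes was not tested.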

How the data were processed

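RNA-seq counts of 8 libraries were analysed, 4 in the A2A antagonist group and 4 in the dual group. Reads had been mapped by the authors with HISAT2, and the processing notes of the submitters name mm10 and featureCounts 1.5.0-p3. The deposited values used are raw counts per gene, not normalized and not pooled, with the exonic length of each gene. Whether counting used the strand was not stated. The tables also hold normalized values, FPKM and comparisons (fold changes, p-values) of the authors, which were not used, and 9 columns of 3 control libraries that match no sample of the series were not used. The tables share 30302 genes, with 0 differing counts in the A2A antagonist libraries. Coordinates are those of the tables, which for all 10 members equal GENCODE mouse release M21 (GRCm38).

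Counts were filtered with filterByExpr (minimum count 10), scaled with TMM factors and tested with the quasi-likelihood F test of edgeR 4.0.16 in R 4.3.3, with no covariate. Two-sided p-values were adjusted over all tested genes by the Benjamini-Hochberg procedure, with a threshold of 0.05. Standard errors were derived from the F statistics. In simulated counts of this comparison (18567 genes run), 91.9% of genes changed 2-fold and 59% of those changed 1.25-fold were recovered, and 9 of all 159 calls were false. Every simulated gene was given the same coefficient of variation beyond counting error, 5.28%. In the fit the members had 4.65% (Prelp) to 17.1% (Aspn), and all but Prelp lay above 5.28%. Recovery at the larger spread of the members other than Prelp was therefore not measured. They include Ogn (6.13%), Podn (6.45%), Bgn (6.49%), Fmod (6.95%), Lum (7.31%), Omd (9.28%) and Aspn. Changes smaller than 1.25-fold were not simulated, and the mean CPM of Dcn and Ogn differed by 1.08-fold and 1.13-fold. Profiles for likeness are log2 CPM with a prior count of 2. Libraries of a group differed by 3.58 to 8.65 times the chi-square per degree of freedom expected from counting, so none was a copy. The counting part of the coefficient of variation is that of a Poisson count and covers counting error only.

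The members and lists were chosen with earlier results of these data known. Named are all members, 8 relatives, in each further list the called genes and the 2 others with the smallest p-value, and for each of the 3 most abundant members the 5 nearest genes outside the family. Genes named beyond this are said to be chosen after their values were seen. They include Csf1r, Tmem119, Pdgfra, Cd44, Tlr2, Tlr4, Adamts1 and Adamts5. Of the lists, Chst13, Chst4 and Cldn5 were not analysed here. Alternatives were DESeq2 1.42.0, RLE size factors, total counts, no filter, the replicate number as a block, and each library left out in turn.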

Additional observations from a re-analysis of the deposited data

Results flagged for a closer look

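Bgn in replicate 1 of the dual group, at 373.8 CPM, stood far from the other 3 libraries of its group (289.5 to 302 CPM), with a gap to the nearest of them of 0.847 of the whole range, above Dixon's 95% critical value for 4 samples. It was 1 of 20 groups of libraries examined for the 10 members, and chance alone flags about 1 in 20. The same library had the smallest total count (32630602), the highest summed level of the 11 collagen genes (3329 CPM) and the highest Podn level (27.9 CPM).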

How the results depend on the processing

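No member was called by edgeR or DESeq2 under any of the 13 alternatives (DESeq2 gave an adjusted p-value to 6 of the 9), and of 117 alternative fold changes of the 9 members 107 kept their direction, while 10 turned it, all of them of Bgn, Fmod or Prelp. The fold change of Bgn (log2) was -0.0028 without the low-count filter and -0.0021 with the replicate block. Over the fits without 1 library it ran from -0.087 (without dual replicate 1) to 0.043, that of Fmod from -0.091 to 0.016 and that of Prelp from -0.0080 to 0.066. Those of Dcn (0.07 to 0.16), Lum (0.19 to 0.29), Ogn (0.13 to 0.24), Aspn (0.33 to 0.69), Omd (0.14 to 0.28) and Podn (0.0044 to 0.14) kept their sign. An unadjusted p-value under 0.05 in edgeR was less stable. Ogn kept it in all 8 of these fits, Lum in 5, Dcn in 4 and Aspn in 3, while Omd and Podn reached it in 1 each. Without A2A antagonist replicate 4 it was reached by 1 member. The full order of the 10 genes by level per length held in 3 of 8 libraries with either scaling. The count of called genes over the whole table (39) was 381 with DESeq2, 366 without the filter and 17 with the replicate block, and over the fits without 1 library it ran from 0 (without A2A antagonist replicate 4 or dual replicate 3, with 1802 and 2092 genes at an unadjusted p-value under 0.05) to 172 (without A2A antagonist replicate 1), with 5 and 6 without A2A antagonist replicates 2 and 3. Across the groups, same-numbered libraries were not more alike than others. Their deviations from the group means correlated at -0.21 to -0.05 across genes, and those of differently numbered libraries at -0.14 to 0.22. No library correlated best with its own number. Whether same-numbered libraries shared a litter or a culture cannot be read from these values.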
